A study of Rattus norvegicus with 19 samples.

Results

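The comparison concerns daughters of male Wistar rats that had met both early life stress and a high-fat diet (ELS-HFD) and daughters of control fathers that had met neither. Its members are 10 of the 19 libraries of the study, 5 from each of these groups, chosen by the father's group that the sample titles and the column names of the count table both give. The other 9 libraries come from daughters of fathers with the diet alone (HFD, 4 libraries) or with the stress alone (ELS, 5 libraries). All the daughters themselves ate chow, so the exposures were the father's and not their own. The series text describes the stress as maternal separation and places the tissue in the amygdala, whereas the sample labels give brain, as a lysate of whole tissue. The series text also speaks of male animals, whereas each sample label says female. The daughters had been tested on an elevated plus maze, a test of anxiety-like behaviour, on postnatal day 57 ± 1. The labels give no father, litter, dissection batch or date, so a difference between fathers' groups and a difference between single fathers or litters cannot be told apart, and p-values here speak only of the spread among the sampled daughters.

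The amygdala is a group of nuclei deep in the forebrain that takes part in fear, anxiety and the appraisal of threat, and it carries receptors for the hormones of the stress axis. Early life stress and a high-fat diet are both known to act on that axis in the animal that meets them, and a father can pass information to his offspring through sperm, for which DNA methylation and small RNAs have been studied as carriers. The comparison also takes in 1 gene as a covariate, transthyretin (ENSRNOG00000016275), which carries thyroxine and, with retinol-binding protein, vitamin A. Within the brain it is made mainly by the epithelium of the choroid plexus, the tissue that secretes cerebrospinal fluid and hangs in the ventricles, one of which lies beside the amygdala.

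The deposited table names genes by Ensembl ID, and 0 of its 32883 IDs could be paired with a symbol here, so no other gene is named and the marker genes of the amygdala, of its cell types and of neighbouring tissues were not read. Library totals ran from 13184500 to 20266594 counts in control and from 7034837 (ELS-HFD replicate 2) to 14766188 in ELS-HFD, and a difference in mean total of -3682405 counts was within the spread (exact permutation p = 0.0794, two-sided). Of 22049 IDs with a count in these 10 libraries, 14738 passed a filter on low counts (edgeR's filterByExpr) and were tested. Values are given as CPM, the usual count scaled to library size, here with library sizes adjusted by TMM, a method that allows for differences in composition.

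Transthyretin had 4629, 2370, 1118, 883 and 325 CPM in control replicates 1 to 5. It had 0.769, 868, 859, 5.15 and 10580 CPM in ELS-HFD replicates 1 to 5. All 5 control daughters thus had a high level, whereas the ELS-HFD daughters held both the highest and the lowest levels of the 10 animals, with replicates 1 and 4 far below every control and replicate 5 above them all. The counts behind these extremes were 10 in ELS-HFD replicate 1 (of 13274907 in that library), 69 in replicate 4 (of 13588020) and 127884 in replicate 5 (of 11340358). In whole tissue, fewer cells of a type and less of its RNA per cell cannot be told apart.

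The direction of the group difference in transthyretin depended on the scale. The ELS-HFD mean was 2462 ± 4558 CPM (SD, n = 5) and the control mean 1865 ± 1717 CPM (SD, n = 5), and edgeR's quasi-likelihood fit, which compares means of counts, gave a log2 fold change of 0.40 ± 1.47 (SE; 95% interval -2.80 to 3.60) with an adjusted p of 0.935. On the log2 scale the means were 7.03 ± 5.65 (SD, n = 5) and 10.33 ± 1.45 (SD, n = 5), so that ELS-HFD differed by -3.30 (two-sided exact permutation p = 0.286; adjusted p = 0.357 over 5 library measures; the smallest p these splits allow is 0.00794). Neither is past the threshold of 0.05, and the groups overlapped. Among single libraries left out, only ELS-HFD replicate 5 turned the sign in edgeR, where the log2 fold change was -2.11 without it (adjusted p = 0.483). With all 10 libraries, a term for replicate number in edgeR also turned it, to -2.4 (adjusted p = 0.763). Without ELS-HFD replicate 5, the highest library, the difference of mean log2 CPM was -4.88 (exact permutation p = 0.0397, not adjusted). No other of the 11 settings with libraries left out was under 0.05. Their exact permutation p-values ran from 0.161 to 0.563. Over all its alternatives the adjusted p of edgeR, limma-voom or DESeq2 for this gene ran from 0.483 to 0.985.

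The other groups place these levels. With all 19 libraries scaled together, the 4 HFD daughters had 0.684 to 2.59 CPM of transthyretin. Among ELS daughters 4 had 0.906 to 6.83 CPM and replicate 5 had 4377 CPM. The low levels of ELS-HFD replicates 1 and 4 were of the order of those in HFD and in 4 of the ELS daughters, and the high levels of the other 3 were of the order of those in control.

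**Figure D1:**
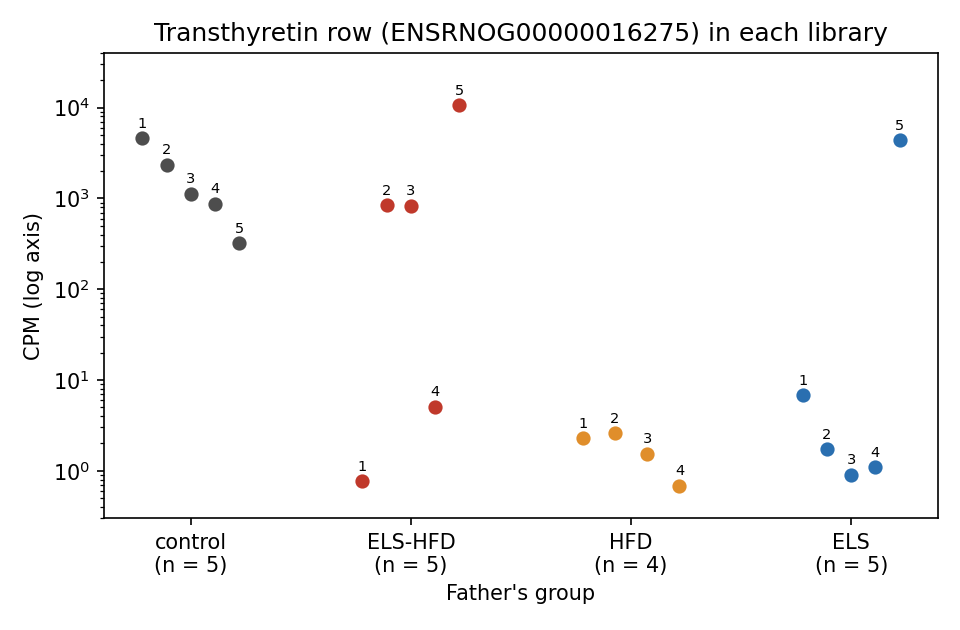
CPM of the transthyretin row on a log axis in each of the 19 libraries, by the father's group, with points numbered by replicate and scaled over all libraries. Control libraries are all high and HFD libraries all low, while ELS-HFD libraries range from 0.766 to 10590 CPM.

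In whole profiles the ELS-HFD daughters lay farther from each other than the control daughters did. For the 9756 IDs with a mean of at least 10 CPM, the distance between 2 libraries was taken as the root mean square of their differences in log2 CPM. Its median was 0.545 over the 10 pairs of ELS-HFD libraries, 0.321 over the 10 pairs of controls and 0.453 over the 25 pairs that join the groups. A pair of ELS-HFD daughters was therefore in the median farther apart than an ELS-HFD daughter and a control. Not every pair was so: replicates 1 and 4 were at 0.354, within the range of the control pairs (0.253 to 0.383), and replicates 2 and 3, at 0.238, were closer to each other than any 2 controls. Their counts still differed by more than sampling noise, with a chi-square per degree of freedom of 5.25 where control pairs had 11.1 to 24.1. These values are at unlike depth, since ELS-HFD replicate 2 had the smallest total, 7034837 counts. They cannot tell separate animals from repeat libraries of a single animal. The sample titles number replicates 2 and 3 as separate replicates, and both were kept as such.

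The same was seen ID by ID. The SD among ELS-HFD libraries was larger than that among controls for 7629 of the 9756 IDs (78.2%), with a median SD of 0.221 against 0.145 on the log2 scale. Leaving out any single ELS-HFD library gave a share of 71.4% (without replicate 4) to 77.3% (without replicate 2), and leaving out replicates 2 and 3 gave 61.3%. Without replicates 2, 3 and 5 it was 48.5%, but only replicates 1 and 4 then remained, which were each other's nearest library; no other set of 3 was left out. No test was made of these shares, since IDs vary together.

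Principal components show which daughters stood where. The first component held 31.5% of the variance, and ELS-HFD replicates 2 and 3 had scores of 54.04 and 47.59 on it, with the other 8 libraries between -29.61 and 7.84. The same 2 libraries gave the largest shares of their counts to the 10 most abundant IDs, 14.81% and 16.74%, where controls had 10.89% to 12.60%. With that share as a covariate, edgeR had 815 IDs at an unadjusted p under 0.05 for ELS-HFD against control, where it had 1465 without it, and called 0 in either fit. The second component held 26.2% and ran from -43.75 and -33.49 in ELS-HFD replicates 4 and 1, the libraries with little transthyretin, to 47.86 in ELS-HFD replicate 5, the library with the most. Controls lay between, from -12.26 to 22. On neither component did the group means differ beyond the spread, with differences of 29.87 (exact permutation p = 0.135, adjusted p = 0.317) and -3.32 (exact permutation p = 0.857, adjusted p = 0.857). The libraries of ELS-HFD thus lay around the controls on several sides.

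**Figure D2:**
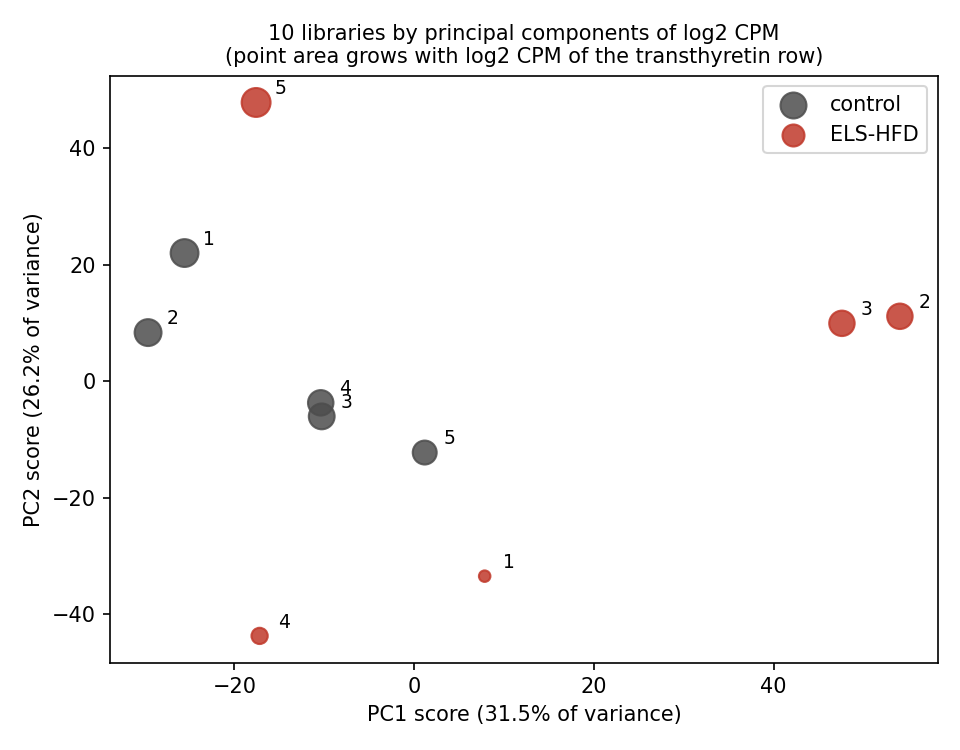
Scores of the 10 libraries on the first 2 principal components of log2 CPM over the IDs tested, numbered by replicate, with the area of each point growing with the log2 CPM of transthyretin. The 5 controls lie together, ELS-HFD replicates 2 and 3 lie far to the right, and ELS-HFD replicates 1 and 4 (small points) and 5 (large point) lie at the bottom and the top.

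In the fit to these 2 groups alone, edgeR called 0 of the 14738 IDs at a Benjamini-Hochberg adjusted p under 0.05, and the smallest adjusted p was 0.194. With no adjustment, 1465 IDs had a p under 0.05 (9.94% of those tested), 867 with a higher mean in ELS-HFD (5.88%) and 598 with a lower mean (4.06%). limma-voom called 0, with 1595 at an unadjusted p under 0.05, and DESeq2 called 7 (5 higher and 2 lower), with 1601. The balance of directions was not stable, since limma-voom had 761 higher and 834 lower, and edgeR with no filter on low counts had 789 higher and 875 lower. The share at an unadjusted p under 0.05 was larger among abundant IDs, at 6.18% of the 4548 IDs with a mean of 1 to 10 CPM, 11.6% of the 7742 with 10 to 100 CPM and 13.4% of the 2013 with at least 100 CPM. In these classes, in that order, log2 fold changes had a median SE of 0.27, 0.13 and 0.10.

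Most IDs differed little. The median absolute log2 fold change was 0.15, with a median SE of 0.16. For 12293 of 14737 IDs, transthyretin left out (83.4%), the 95% interval lay within a fold of 2 in either direction, and for IDs with a mean of at least 10 CPM this held for 9246 of 9755 (94.8%). A fold above 2 was estimated for 90 IDs, 51 higher and 39 lower in ELS-HFD, of which 54 had an unadjusted p under 0.05. The groups did not overlap, that is, all 5 libraries of one group were above all 5 of the other, for 161 IDs (1.09%), 108 higher (0.733%) and 53 lower (0.360%). For a single ID, a random split into 5 and 5 libraries separates them fully, in either direction, with a probability of 0.00794. This is the smallest p of the exact permutation test given above. The share of 1.09% was of the same order, and it was not tested, since IDs vary together. A lack of overlap in a single ID is therefore weak evidence among so many IDs. No ID with at least 10 counts in every library of one group was at 0 in all libraries of the other.

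The IDs with the smallest p in each direction show what the strongest differences looked like, and their p-values are those by which they were chosen. ENSRNOG00000060523 had 4.65, 4.64, 4.63, 5.79 and 5.25 CPM in control replicates 1 to 5 and 8.38, 10.5, 10.5, 13.4 and 9.02 CPM in ELS-HFD replicates 1 to 5. Every ELS-HFD daughter was above every control. edgeR gave a log2 fold change of 1.06 ± 0.16 (SE), a fold of 2.08, with an adjusted p of 0.194. Over its 19 alternatives the log2 fold change stayed between 0.95 and 1.11 and the adjusted p ran from 3.46e-05 to 0.966, with a call by DESeq2 alone.

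ENSRNOG00000032635 had 36.2, 32.0, 30.9, 27.5 and 37.5 CPM in control replicates 1 to 5 and 58.4, 61.2, 64.7, 42.9 and 55.0 CPM in ELS-HFD replicates 1 to 5. The groups did not overlap, and ELS-HFD replicate 4 was nearest to the controls. Its log2 fold change was 0.78 ± 0.12 (SE), a fold of 1.72, with an adjusted edgeR p of 0.194. Alternatives gave 0.67 to 0.87 and an adjusted p from 4.46e-05 to 0.966, with a call by DESeq2 and by edgeR without ELS-HFD replicate 4 (0.0426).

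ENSRNOG00000029386 was detected in every control daughter, with 30, 101, 22, 126 and 90 counts in replicates 1 to 5. ELS-HFD replicates 1 to 5 had 1, 0, 3, 4 and 0 counts. The control mean was 5.11 ± 3.48 CPM (SD, n = 5), and the ELS-HFD mean was 0.118 ± 0.133 CPM (SD, n = 5). The groups did not overlap, and the controls themselves differed by several fold. The edgeR log2 fold change was -5.17 ± 0.79 (SE; 95% interval -6.89 to -3.46), with an adjusted p of 0.194. It ran from -5.75 to -4.85 over the alternatives, with adjusted p-values from 2.59e-07 (DESeq2, the only call) to 0.966.

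ENSRNOG00000027290 had 28.0, 30.3, 27.4, 30.7 and 33.6 CPM in control replicates 1 to 5 and 18.8, 16.0, 17.7, 26.4 and 17.0 CPM in ELS-HFD replicates 1 to 5. ELS-HFD replicate 4 again lay nearest to the controls, just below the lowest of them. The edgeR log2 fold change was -0.64 ± 0.14 (SE), a fold of 0.641, with an adjusted p of 0.495. The alternatives gave -0.78 to -0.53, with adjusted p-values from 0.0426 (edgeR without ELS-HFD replicate 4) to 0.966, and DESeq2 also called it (0.0434).

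The HFD and ELS daughters, whose libraries took no part in choosing these 4 IDs, are set beside control and ELS-HFD here. The control and ELS-HFD levels did choose the IDs, so a library of another group may lie outside the control range for that reason. Whether the levels go with one exposure of the father was not tested. With all 19 libraries scaled together, ENSRNOG00000060523 averaged 4.97 ± 0.498 CPM over the control daughters (SD, n = 5) and 10.2 ± 1.87 CPM over the ELS-HFD daughters (SD, n = 5). In ELS it was at 7.75 to 11.9 CPM in replicates 2 to 5 and at 4.62 CPM in replicate 1. In HFD it was at 4.41 to 4.93 CPM in replicates 1 to 3, and HFD replicate 4 had 0 counts. ELS replicates 2 to 5 thus lay above all the controls, and 0 of 4 HFD daughters did.

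ENSRNOG00000029386 divided the ELS daughters at the same animal, in the opposite direction. In ELS it had 1 or 2 counts in replicates 2 to 5 and 89 counts in replicate 1. In HFD it had 71, 10, 85 and 88 counts in replicates 1 to 4, and replicate 2, at 0.7 CPM, lay below every control (1.35 to 8.84 CPM) and above every ELS-HFD library (at most 0.296 CPM). ELS replicate 1 was thus the ELS library near the controls for both IDs. A shared father or litter and the father's early life cannot be told apart here.

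The other 2 IDs did not divide the ELS daughters at replicate 1. ENSRNOG00000032635 was at 56.1 ± 22.5 CPM (SD, n = 4) in HFD, from 33.5 to 87.2, and at 39.7 ± 8.03 CPM (SD, n = 5) in ELS, beside 32.7 ± 3.99 CPM for control (SD, n = 5) and 55.6 ± 7.84 CPM for ELS-HFD (SD, n = 5). ENSRNOG00000027290 was at 20.7 ± 10.6 CPM (SD, n = 4) in HFD, where replicate 1 had 5.24 CPM and the others 22.9 to 29.0. It was at 25.1 ± 2.72 CPM (SD, n = 5) in ELS, beside 29.9 ± 2.22 CPM for control (SD, n = 5) and 18.9 ± 4.18 CPM for ELS-HFD (SD, n = 5). Both singly exposed groups overlapped control and ELS-HFD in these IDs. ENSRNOG00000032635 lay above every control (27.4 to 37.1 CPM) in HFD replicates 1 to 3 and in ELS replicates 2 to 4. ENSRNOG00000027290 lay below every control (27.6 to 33.2 CPM) in HFD replicates 1, 3 and 4 and in ELS replicates 1, 2, 3 and 5. The remaining HFD and ELS libraries lay within the control range of each ID. Those control ranges are among the values by which the IDs were chosen.

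**Figure D3:**
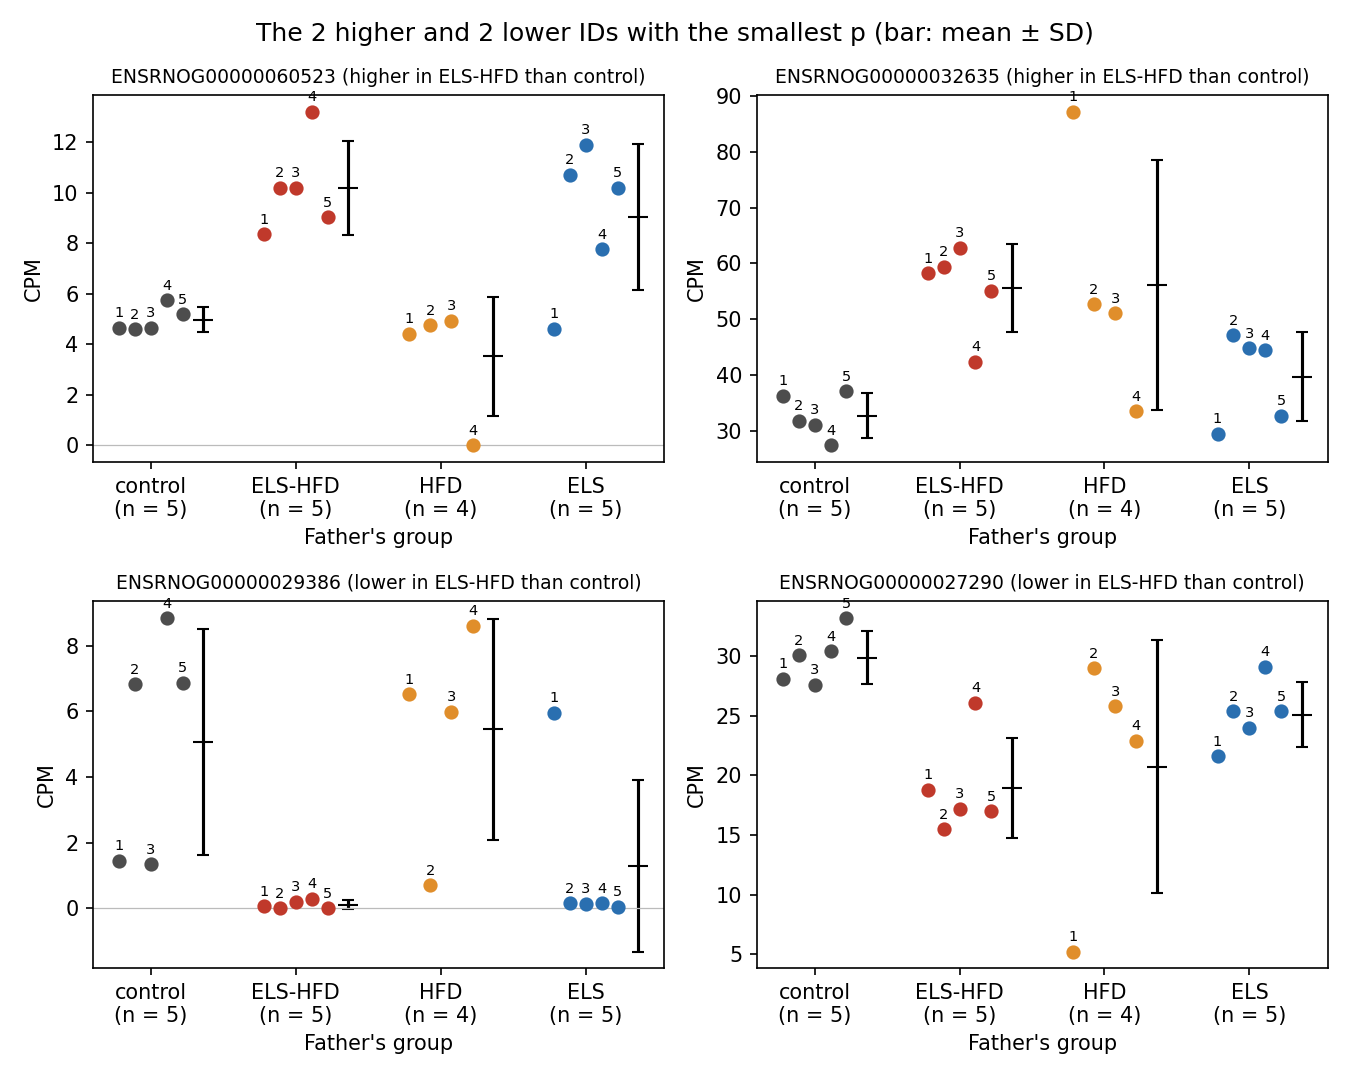
CPM of the 2 higher and 2 lower IDs with the smallest p in each of the 19 libraries, by the father's group, numbered by replicate, with the mean and SD of each group as a bar. ELS-HFD and control do not overlap in any panel, ELS replicate 1 lies with the controls in both left panels, and HFD replicate 1 is the extreme library in both right panels.

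The fit was then repeated with log2 CPM of transthyretin as a covariate, which compares the groups at an equal level of that gene through a straight-line slope. Controls had log2 CPM of 8.34 to 12.18. ELS-HFD replicates 1, 4 and 5, at -0.13, 2.41 and 13.37, lay outside that range. For these libraries the comparison rests on the slope, since no control was at their level. edgeR again called 0 IDs, of 14737 tested, with a smallest adjusted p of 0.177. A p under 0.05 before adjustment was reached by 2502 IDs (17.0%), 1200 higher (8.14%) and 1302 lower (8.83%) in ELS-HFD. limma-voom called 0, with 2529 at an unadjusted p under 0.05, and DESeq2 called 211 (84 higher and 127 lower), with 2636. The tools thus differed in calls although they had like numbers of IDs at an unadjusted p under 0.05. Of the 1465 IDs from the fit without the covariate, 1183 (80.8%) were also among the 2502 (47.3% of those). All 1183 kept their direction, but both sets were chosen by p-values from the same libraries, so this is not independent evidence.

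The term of the covariate itself was at an adjusted p under 0.05 for 243 IDs, of which 227 were higher where transthyretin was higher and 16 lower. For these 243 the group's log2 fold change moved by a median of 0.34, against 0.064 over all IDs. They were picked by their slope in the same fit, so a larger move is built into the choice. Of the 243, 2 were at an unadjusted p under 0.05 before the covariate and 90 with it. Among all IDs tested the numbers were 1465 of 14738 (9.94%) and 2502 of 14737 (17.0%). The rise to 90 was not tested and comes from the fit that picked these IDs. Over all IDs the SE with the covariate was a median 1.093 times that without it, and it was smaller for 2876 IDs; the fit had 7 residual degrees of freedom in place of 8. The sign of the group difference turned for 1501 IDs (10.2%) and for 0 of the 1465. The 1465 were chosen for differences that are large beside their SE, so a turn of sign was unlikely among them from the start. Among IDs with a mean of at least 100 CPM, 27.2% were at an unadjusted p under 0.05 with the covariate, 163 higher and 384 lower, against 143 higher and 127 lower without it.

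**Figure D4:**
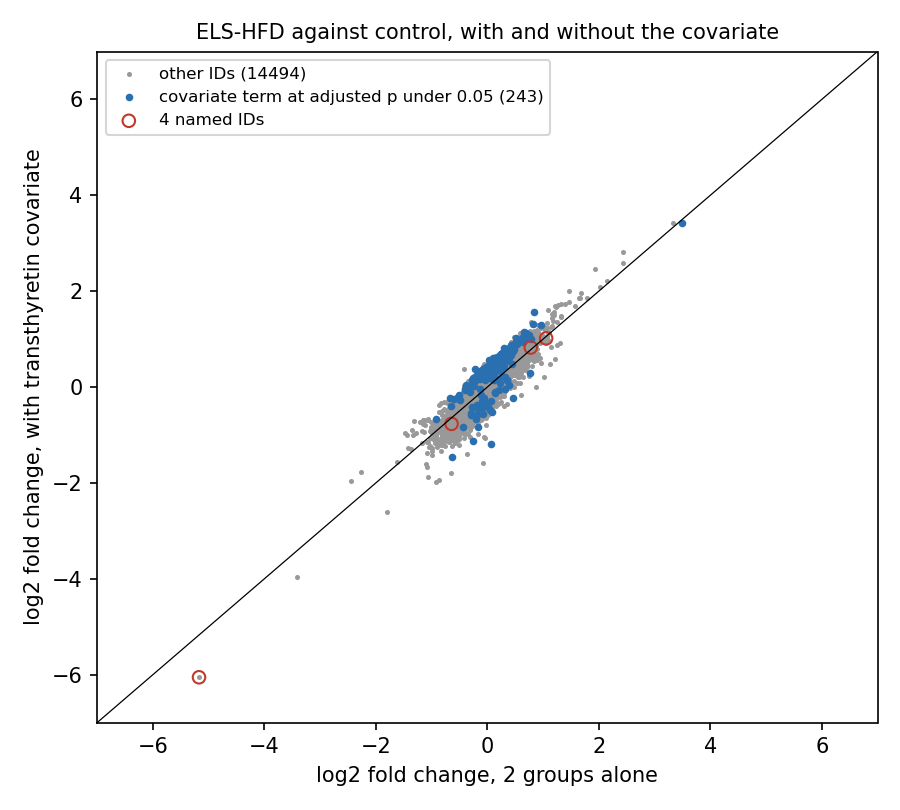
Log2 fold change of ELS-HFD against control for each of 14737 IDs, in the fit to the 2 groups alone (x axis) and with the transthyretin covariate (y axis); the line marks equal values. Most IDs lie along the line, the 243 IDs with a called covariate term (blue) lie mainly above it, and the 4 named IDs (red circles) keep their direction.

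The 4 named IDs kept their direction with the covariate, and ENSRNOG00000029386 moved most. They were chosen for the smallest p in the fit without it, so a turn of sign was unlikely. With the covariate the log2 fold change was 1.02 ± 0.18 (SE) for ENSRNOG00000060523, 0.82 ± 0.13 (SE) for ENSRNOG00000032635, -6.05 ± 0.95 (SE) for ENSRNOG00000029386 and -0.77 ± 0.13 (SE) for ENSRNOG00000027290. For ENSRNOG00000029386 the fold went from 0.0277 to 0.015. The adjusted edgeR p-values of the 4 with the covariate were 0.202, 0.177, 0.177 and 0.202, in the order above. All 4 were called without ELS-HFD replicate 4, at 0.0438, 0.0301, 0.0438 and 0.0301, and over all alternatives each reached 0.67. DESeq2 called ENSRNOG00000032635 (0.000131) and ENSRNOG00000027290 (0.000421) and gave no adjusted p for the other two.

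The number of IDs at an unadjusted p under 0.05 changed when single libraries were left out. Each such fit also had a smaller group, and the part of a change due to group size was not separated. In the fit to the 2 groups alone the 1465 became 3276 without ELS-HFD replicate 4, with 7 called (1 higher and 6 lower), and 822 and 848 without ELS-HFD replicates 2 and 3. It was 777 without control replicate 2, and 656 without ELS-HFD replicates 2 and 3 together. With the covariate the 2502 became 4217 (1 called) without ELS-HFD replicate 5, 1501 and 1528 without replicates 2 and 3 and 1659 without control replicate 2. Without ELS-HFD replicate 4 it was 3417, with 66 called, 11 higher and 55 lower. ELS-HFD replicate 4 was the ELS-HFD library nearest to the control mean for 965 of the 1465 IDs (65.9%) and for 27.5% of the other IDs tested. Replicates 2 and 3 were so for 3.96% and 3.75% of the 1465, and for 13.1% and 13.8% of the others. The 1465 were chosen by p-values from these same libraries. No test was made of these shares, since IDs vary together.

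**Figure D5:**
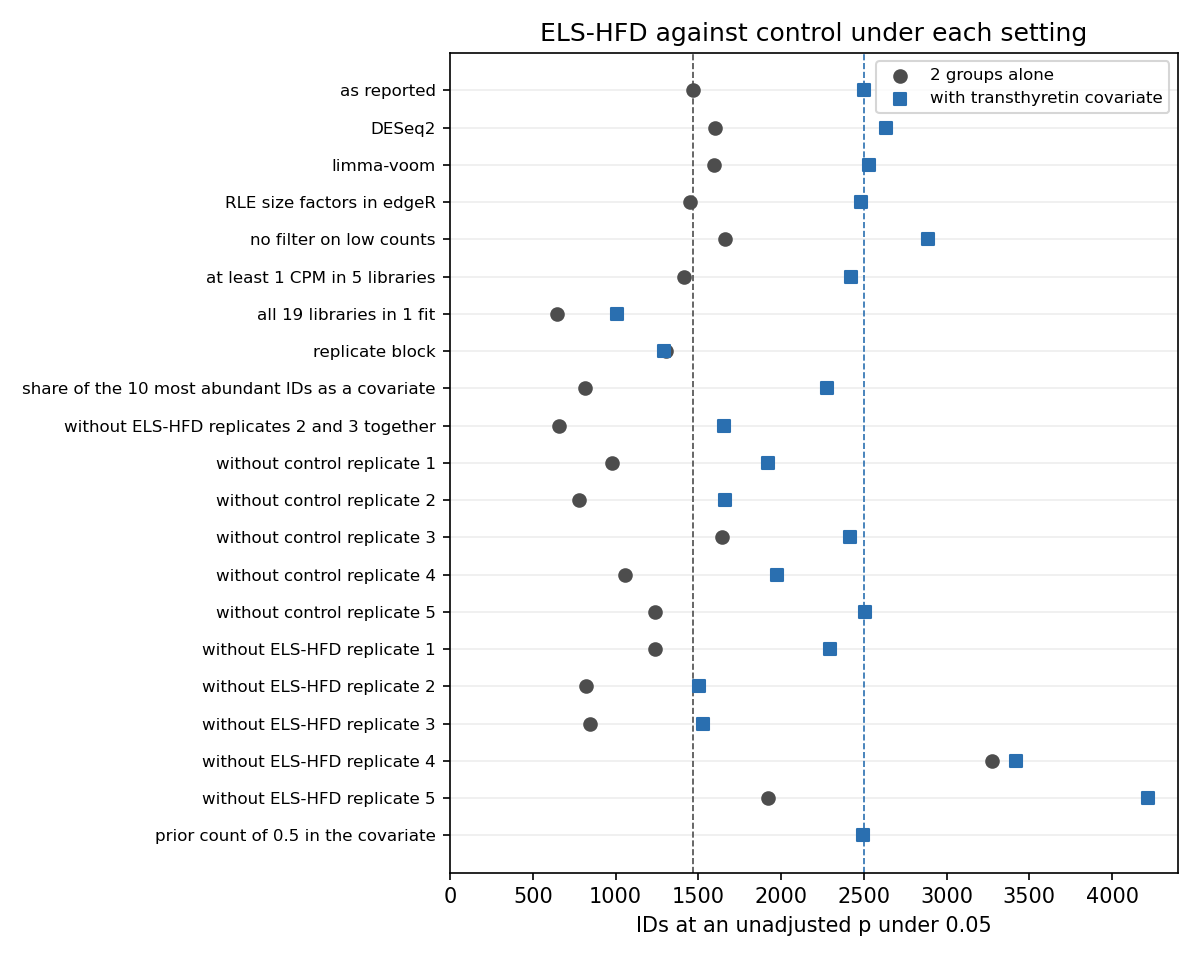
Number of IDs with a p under 0.05 before adjustment, ELS-HFD against control (x axis), under each setting (y axis), in the fit to the 2 groups alone (circles) and with the transthyretin covariate (squares); dashed lines mark the values as reported. The highest numbers, 3276 and 4217, come with ELS-HFD replicate 4 or 5 left out, in that order, and fitting all 19 libraries gives 643 and 1011.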

How the data were processed

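RNA from brain tissue of female rats was enriched for polyadenylated RNA and primed at random from about 400 ng, per the labels' protocols. The authors' deposited table holds raw read counts, as whole numbers, for each Ensembl gene ID in 19 libraries. Rnor_6.0 and DESeq2 appear in the submitters' processing notes; for the aligner, annotation release and strand setting, nothing is given in the sources used here, so counts of overlapping or near-identical genes are uncertain. The main fit used the 10 libraries of ELS-HFD and control only: filterByExpr (at least 99.86% of each library's counts kept), TMM, and edgeR's quasi-likelihood F test (edgeR 4.0.16, R 4.3.3) with Benjamini-Hochberg adjustment, called under 0.05. The SE was derived from the log2 fold change and F (their ratio, with F under a square root). The second fit added log2 CPM (prior count 2) of transthyretin, whose ID was named with the comparison; its own row was left out. Alternatives used DESeq2 1.42.0, limma-voom (limma 3.58.1), other scaling, filters, covariates and samples. Single library measures were compared by exact permutation, two-sided. The procedure was tested on simulated counts. The named IDs are the 2 higher and 2 lower with the smallest p, since 0 IDs had a symbol; 24 gene lists needed symbols and were not tested. The comparison, the lists and the alternatives were chosen with earlier results of these data known.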

Additional observations from a re-analysis of the deposited data

Results flagged for a closer look

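In 5 of 28 groups of 4 or 5 values the highest or lowest library stood far off the others; by chance this happens in about 1 of 20 groups. All 5 were in the HFD or ELS groups, in levels given as log2 CPM scaled over 19 libraries. ENSRNOG00000060523 was at -2.78 in HFD replicate 4, which had 0 counts, and at 2.19 to 2.34 in the other HFD libraries. ENSRNOG00000029386 was at -0.24 in HFD replicate 2 against 2.62 to 3.13, and at 2.61 in ELS replicate 1 against -2.31 to -1.73 in the other ELS libraries. ENSRNOG00000027290 was at 2.43 in HFD replicate 1 against 4.52 to 4.87. Transthyretin (ENSRNOG00000016275) was at 12.10 in ELS replicate 5 against 0.07 to 2.80. These IDs were chosen with their levels in control and ELS-HFD known, and no ELS-HFD or control library was that far from its group in the measures looked at.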

How the results depend on the processing

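edgeR called 0 IDs in the fit to the 2 groups alone under all alternatives except without ELS-HFD replicate 4 (0 to 7 over single libraries left out), and DESeq2 called 7. IDs with an unadjusted p under 0.05 numbered 777 to 3276 over single libraries left out, 656 without ELS-HFD replicates 2 and 3 together, 643 with all 19 libraries in 1 fit and 815 with the share of the 10 most abundant IDs as a covariate. With the transthyretin covariate the calls were 0 to 66 over single libraries left out, 211 with DESeq2, 3 with that share as a further covariate and 1 with ELS-HFD replicates 2 and 3 left out. IDs with an unadjusted p under 0.05 then numbered 1501 to 4217 over single libraries, 1654 without those 2 and 1011 with all 19 libraries. A replicate block gave 1292 such IDs, and 1302 with no covariate, with 0 calls in both. The numbers do not pair the animals: same-numbered libraries of the 2 groups correlated in their deviations at -0.378 to 0.101, and 1 of 5 ELS-HFD libraries correlated best with its own number. The transthyretin log2 fold change turned to -3.40 with limma-voom and to -2.40 with the replicate block, and ran from -2.11 to 1.09 over single libraries left out; its difference of mean log2 CPM ran from -4.88 to -1.51. The cause of these shifts was not tested. The covariate built from a choroid plexus list and the gene lists were not run, since they need symbols.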
